A study of Mus musculus with 15 samples.

Results

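Transcript levels of 9 genes of the fibroblast growth factor (FGF) pathway and its ERK feedback were followed through a knockdown (kd) of Smarcb1 in mouse embryonic stem cells (ESC). The genes were chosen by symbol from the 55228 genes listed in every library, with earlier results of these data known. They are the ligand gene Fgf4, the receptor genes Fgfr1 and Fgfr2, the feedback inhibitors Dusp6, Spry2, Spry4 and Spred1, and the ETS factor genes Etv4 and Etv5. RNA was sequenced in 15 libraries, 3 in each of 5 groups: 48 h ctrl, 48 h kd, 72 h kd, 240 h ctrl and 240 h kd. All groups are the cell line 81K1, a clone made from the mouse ESC line OG2, which expresses an shRNA against Smarcb1 when doxycycline is given. Smarcb1 belongs to the core of BAF, a complex that remodels chromatin. The kd groups received 1 µg of doxycycline per ml of medium daily for the stated time and the ctrl groups received none. All cells grew in serum with LIF on gelatine, without a FGF or ERK inhibitor in the recorded medium. The 72 h kd group has no control of its own here and was set against 48 h ctrl, and cells given the drug but lacking the shRNA are not among the libraries analysed, so effects of the drug and of Smarcb1 loss cannot be told apart in these libraries. Since the 48 h and 72 h comparisons share their control libraries, their values are given side by side.

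FGF ligands bind receptor tyrosine kinases at the cell surface, which switch on the RAS, RAF, MEK and ERK kinase cascade. Active ERK induces its own inhibitors, among them the ERK phosphatase Dusp6 and the Sprouty and Spred proteins, so their transcripts are commonly read as a measure of pathway output, together with the ETS factors Etv4 and Etv5. In mouse ESC, Fgf4 is the main autocrine ligand, and ERK signalling opens the way out of self-renewal towards differentiation.

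The knockdown raised Fgfr1 at every time and raised Dusp6 and Spry2 at 240 h, while the other members moved by less than the fold threshold or not detectably. Fgfr1 was 1.52-fold higher at 48 h, 1.70-fold at 72 h and 1.75-fold at 240 h. Dusp6 was 1.98-fold and Spry2 1.64-fold higher at 240 h. Fgf4 and Spry4 lay above control in both early comparisons, and at 240 h Fgf4 lay below it while Spry4 matched it within 0.13 on the log2 scale. The members did not move as 1 block.

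Levels are given as deposited, in FPKM, which here are reads over the whole gene span, introns included, per kilobase of span, scaled to the library total. Fold changes are differences of log2(RPM + 0.5), where RPM are the same reads scaled to the library total without division by length. A gene was called at a Benjamini-Hochberg adjusted p under 0.05 from limma, a linear model fitted over all genes, with an absolute log2 fold change above 0.58, the threshold of the study. Only called genes are said to rise or fall. All 9 members passed the minimum of a mean of 10 reads in each of the 7 comparisons.

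The libraries held between 11074998 and 14515300 reads behind the FPKM. Smarcb1, the target of the shRNA, averaged 3.60 and 3.42 FPKM in the 48 h and 240 h controls and 0.647, 0.564 and 0.660 FPKM in the 48 h, 72 h and 240 h kd groups, and each kd library lay below each control library. The 10 ESC markers examined, among them Pou5f1, Sox2 and Nanog, were all present. Their summed level was 5462 to 5493 RPM in 240 h kd and 6218 to 7520 in the other groups. The mitochondrial share of reads was 0.469% to 2.35%, highest in the second 48 h kd library. This library and the third 240 h ctrl library differed most from their replicates, so values are also given without them where a call changes. The labels name replicates without stating separate cultures, so p-values measure the spread between these libraries, which may be technical. Intervals and p-values leave out any error shared by a whole group.

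In bulk RNA a change in level per cell and a change in the share of cells that express a gene cannot be told apart, for any result given here. Markers of other cell types were checked beside the members. The summed level of 8 trophoblast markers was 97.3 to 105 RPM in controls at 48 h and 85.1 to 94.5 at 240 h. With knockdown it was 65.3 to 71.6 at 48 h, 172 to 179 at 72 h and 165 to 166 at 240 h. At 48 h Tfap2c and Eomes fell. At 72 h, when Tfap2c rose, the sum was mainly Tfap2c, with 147 to 152 RPM, and no other trophoblast marker was called. Of the 6 of these markers tested at 240 h, Krt8, Krt18, Hand1, Cdx2 and Tfap2c rose and Eomes fell. The 8 fibroblast markers summed to 5.63 to 9.09 RPM outside 240 h kd and to 19.7 to 23.2 within it, mainly from Col1a1. Col1a1 itself rose at all 3 times, by 0.66, 0.71 and 1.71, Col1a2 rose at 240 h and Thy1 fell at 48 h and 72 h. The 7 neural markers summed to 228 to 235 RPM in controls at 48 h and 210 to 232 at 240 h, and with knockdown to 228 to 267 at 48 h, 182 to 195 at 72 h and 299 to 313 at 240 h. These sums hold opposite changes. Sox1 rose at all 3 times, by 1.3, 1.73 and 1.55 on the log2 scale, the times at which Fgfr1 was called, Nes rose at 240 h, Pax6 and Map2 fell at 48 h and 72 h, and Tubb3 fell at 72 h. The 6 mesoderm markers summed to 4.32 to 4.63 in 240 h kd against 2.36 to 3.44 in its controls, and to 2.11 to 4.06 in the other groups. Of the 2 tested at 48 h and 72 h, Tbx6 rose at both times, by 0.87 and 0.82 on the log2 scale. Mixl1, the only 1 tested at 240 h, rose there by 0.91. Tbx6 had 3 to 21 and Mixl1 4 to 33 reads a library. The 8 primitive endoderm markers summed to 33.3 to 35.5 in controls at 48 h and 43.2 to 47.0 at 240 h, and with knockdown to 21.6 to 22.6 at 48 h, 23.1 to 24.0 at 72 h and 48.2 to 58.4 at 240 h. Of these Sox7 fell at all 3 times, Col4a1 fell at 48 h and 72 h, and Dab2, Gata6 and Pdgfra rose at 240 h. Of the 10 ESC markers Klf4 fell at all 3 times, Esrrb and Zfp42 fell at 240 h and Dppa5a rose at 72 h, and the other 6 were not called at any of these times. The part of all these markers in the members' results was not tested.

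Sequence before the start site was available for 6 members in the RefSeq promoter table of build GRCm38.p6, with 7 promoters of 250 bases. Shown are those of Dusp6 and Spry2, the feedback genes that rose at 240 h, and the first of Etv5, a gene that was never called, so that a reader can set them beside each other. CG dinucleotides are in capitals. The Dusp6 promoter lies on the plus strand at chr10:99262981-99263230, that of Spry2 on the minus strand at chr14:105896820-105897069 and that of Etv5 on the minus strand at chr16:22439571-22439820.
Dusp6: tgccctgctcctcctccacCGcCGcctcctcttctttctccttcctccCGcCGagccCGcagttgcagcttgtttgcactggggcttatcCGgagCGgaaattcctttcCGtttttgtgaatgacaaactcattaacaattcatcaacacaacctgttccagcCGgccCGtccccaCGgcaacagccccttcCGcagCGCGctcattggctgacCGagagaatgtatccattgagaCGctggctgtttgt
Spry2: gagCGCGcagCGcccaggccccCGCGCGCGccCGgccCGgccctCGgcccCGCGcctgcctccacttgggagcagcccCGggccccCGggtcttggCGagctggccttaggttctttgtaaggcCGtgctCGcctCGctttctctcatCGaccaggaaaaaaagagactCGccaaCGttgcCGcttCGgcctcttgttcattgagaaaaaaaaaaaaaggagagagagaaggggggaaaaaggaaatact
Etv5: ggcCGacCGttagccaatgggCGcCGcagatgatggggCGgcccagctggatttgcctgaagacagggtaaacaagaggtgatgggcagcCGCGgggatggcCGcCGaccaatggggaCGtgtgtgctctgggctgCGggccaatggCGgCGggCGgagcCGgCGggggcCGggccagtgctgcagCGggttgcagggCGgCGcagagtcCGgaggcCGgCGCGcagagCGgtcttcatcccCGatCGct
The Dusp6 stretch holds 16 CG dinucleotides, that of Spry2 23 and that of Etv5 27, against a median of 6 over 32851 promoters, of which 25.4% hold at least 16. Spred1 had 31, Fgf4 21, the other Etv5 promoter 18 and Fgfr2 2. High CG density was thus shared by members that were called and members that were not. Motifs were searched as exact letters on both strands, and no motif contains another. The letters CCGGAA, a longer form of the ETS motif found in 12% of all promoters, were in none of the 7. The shorter core GGAA was not counted, and it does stand in the Dusp6 and Spry2 stretches shown. The cAMP response element TGACGTCA (1.5% of all promoters), the AP-1 site TGANTCA (6.7%) and TATAAA (12.4%) were in none either. The GC box GGGCGG (32.7% of all promoters) was found 2 times each for Spred1 and Fgf4 and 3 times in the Etv5 promoter shown. The letters CCAAT (33.8% of all promoters) stood 1 time in Dusp6, 1 time in Fgf4, 3 times in the Etv5 promoter shown and 1 time in the other, and nowhere in Spry2. These are matches of letters and not sites.

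Fgf4 is the ligand through which ESC signal to themselves and each other. Its row spans 17877 bases on chromosome 7 (144847367 to 144865243, plus strand, mm10) and begins 14019 bases before the RefSeq start. In untreated cells Fgf4 measured 12.7, 12.4 and 13.4 FPKM at 48 h and 12.7, 13.4 and 13.6 at 240 h. In kd cells it measured 15.6, 14.3 and 14.4 FPKM at 48 h, 14.6, 14.2 and 14 at 72 h, and 10.8, 10.6 and 10.6 at 240 h. The early kd libraries all lay above the 48 h controls, and the 240 h kd libraries all lay below every other library of the series. Against control the log2 fold change was 0.21 ± 0.05 (SE) at 48 h (limma adjusted p = 0.0117), 0.16 ± 0.04 at 72 h (0.00087) and -0.31 ± 0.04 at 240 h (1.03e-05), all under the fold threshold. The effect at 240 h minus that at 48 h was -0.52 ± 0.06 (limma adjusted p = 1.25e-05), so the difference in direction between the times was itself larger than the replicate error.

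Fgf4 lies in a cluster with other genes of the pathway. Fgf3 lies 2930 bases to one side of the Fgf4 row, and Fgf15 and the cell cycle gene Ccnd1 lie 31287 and 64687 bases to the other. Fgf15, an endocrine-type FGF, fell at each time, by 0.79, 1.97 and 1.46 on the log2 scale (limma adjusted p = 0.000119, 3.9e-14 and 2.39e-08). Its mean of 141.7 reads cannot be told apart from that of an overlapping predicted gene with a mean of 108.5. Ccnd1, an ERK-responsive cyclin, had a log2 fold change of -0.44 at 48 h (adjusted p = 0.000171 by limma, under the fold threshold) and fell by 1.23 at 72 h and 1.18 at 240 h. Its span overlaps LTO1. Fgf3 rose by 0.68 at 48 h (limma adjusted p = 0.0145) at 22 to 52 reads a library and was not called later. Neighbouring genes of this cluster thus differed in direction at 48 h.

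Fgfr1, the main FGF receptor of ESC, is the member whose call held at all 3 times. The gene lies on chromosome 8 (25513654 to 25575718, plus strand) and its span holds the predicted gene Gm16159, with a mean of 154 reads against 2943 for the Fgfr1 row. Fgfr1 measured 2.66, 2.7 and 2.74 FPKM in the 48 h controls and 2.79, 2.68 and 2.62 in those of 240 h. The kd libraries gave 4.03, 4.25 and 4.06 at 48 h, 4.72, 4.46 and 4.61 at 72 h, and 4.61, 4.63 and 4.90 at 240 h. No kd library reached down to a control library, and the controls of both times overlapped. Its log2 fold change was 0.60 ± 0.05 (SE) at 48 h (limma adjusted p = 1.92e-06), 0.76 ± 0.04 at 72 h (3.18e-15) and 0.80 ± 0.04 at 240 h (6.66e-11). The 48 h value lies close to the threshold: without the second 48 h kd library it was 0.58 after rounding and just under it, and after rescaling to TPM, in which each library has the same sum, it was 0.56. Between 72 h and 48 h kd Fgfr1 differed by 0.16 (limma adjusted p = 0.015) and between 240 h and 72 h kd by 0.04 (0.359, 95% interval -0.03 to 0.11). Most of its difference from control was thus present at 48 h.

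**Figure D1:**
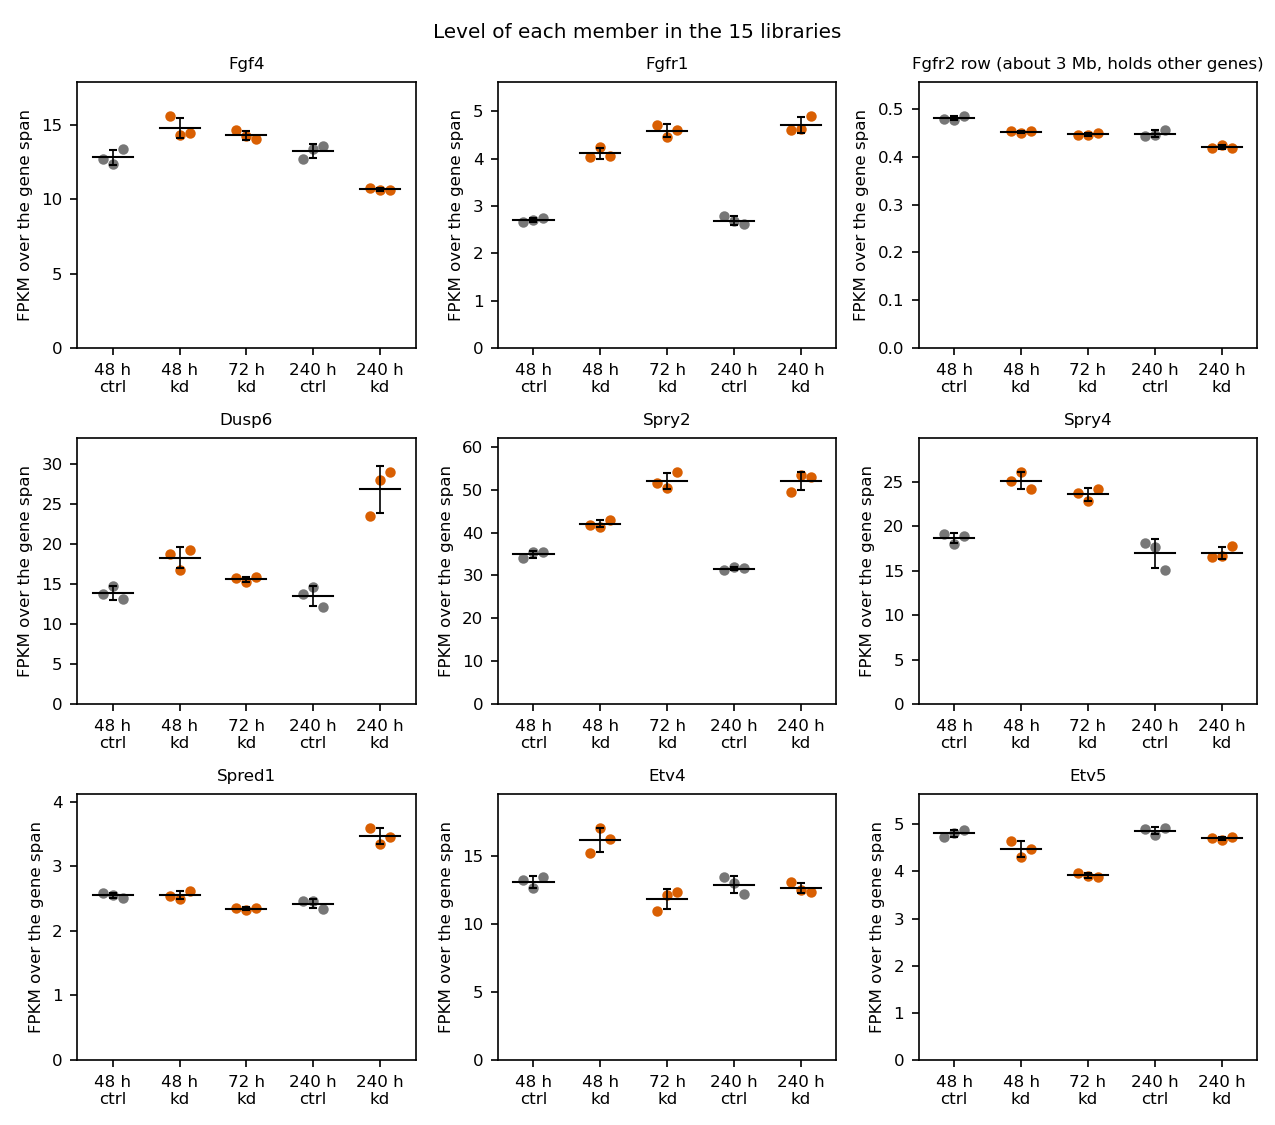
FPKM over the gene span (y axis, from 0) of each member in each of the 15 libraries, by group (x axis); grey points are ctrl and orange points kd libraries, horizontal lines the mean and bars the SD of 3 libraries. Fgfr1 and Spry2 sit above their controls at all kd times, Dusp6 reaches 23.5 to 28.9 FPKM in 240 h kd, and Fgf4 is lowest in 240 h kd.

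The row named Fgfr2, after the receptor that primitive endoderm cells use to read Fgf4, does not measure that gene alone. It covers 2.96 Mb on chromosome 7 (130162451 to 133123350, minus strand), whereas the RefSeq gene covers 104358 bases. Inside lie 69 other listed genes, of which 17 had a mean of at least 100 reads, and reads were counted for each gene whose span they hit. The reads of those genes, with the gene of most reads standing for each cluster of overlapping genes, came to between 90.28% and 91.77% of the row's reads. Those of Ctbp2, a transcriptional corepressor gene that reaches 1004 bases past the end of the row, came to 16.7% to 23.7%. The row gave 0.477 to 0.485 FPKM in controls at 48 h and 0.444 to 0.457 at 240 h, and 0.450 to 0.455 in kd libraries at 48 h, 0.445 to 0.451 at 72 h and 0.419 to 0.425 at 240 h. It was never called, with log2 fold changes of -0.09, -0.10 and -0.09 at the 3 times (limma adjusted p = 0.245, 0.0106 and 0.066).

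None of the inner genes lies within the RefSeq span of Fgfr2, so its own reads are among those left after the reads of the inner genes are taken off. This remainder was 1346 to 1845 reads a library. It is approximate, since it lacks any reads of Ctbp2 from beyond the row and still holds reads of smaller genes in a cluster. Among these are Abraxas2, 1500002F19Rik and Ikzf5, which averaged 368, 348 and 274 reads. Other genes may thus make up much of the remainder. In controls the remainder averaged 136.4 ± 2.39 (SD, n = 3) RPM at 48 h and 115.5 ± 2.54 at 240 h, and in kd libraries 127.1 ± 2.15 at 48 h, 121.6 ± 3.53 at 72 h and 105.6 ± 3.24 at 240 h. This remainder was not called in any comparison, with log2 fold changes of -0.10 at 48 h, -0.17 at 72 h and -0.13 at 240 h (limma adjusted p = 0.137, 0.000963 and 0.0318), and was chosen after the data were seen. It differed more between the controls, by -0.24 from 48 h to 240 h (limma adjusted p = 0.00299), and by -0.20 from 72 h to 240 h kd (5.52e-05). How much of it is Fgfr2 transcript is not known from these files.

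**Figure D2:**
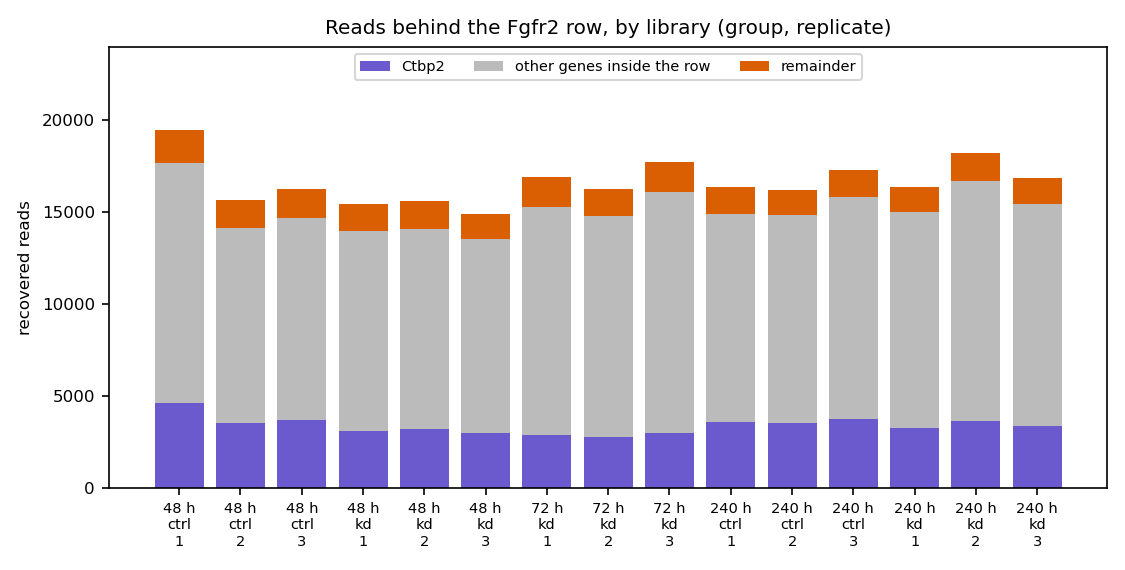
Recovered reads (y axis, from 0) behind the Fgfr2 row in each library (x axis: group and replicate), split into Ctbp2, the other listed genes inside the row, and the remainder. The remainder is 1346 to 1845 reads a library, a small part of each bar.

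Dusp6 encodes a cytoplasmic phosphatase that removes the activating phosphates from ERK. It lies on chromosome 10 (99263231 to 99267489, plus strand), with no other listed gene over it. Dusp6 stood at 13.7, 14.8 and 13.1 FPKM in the 48 h controls and 13.8, 14.6 and 12.1 in the 240 h controls. After knockdown it stood at 18.7, 16.7 and 19.3 FPKM at 48 h, 15.7, 15.2 and 15.8 at 72 h, and 23.5, 28 and 28.9 at 240 h. No kd library overlapped its controls, and the 240 h kd libraries stood above all others, with their first replicate lowest of the 3. The log2 fold change was 0.39 ± 0.07 (SE) at 48 h (limma adjusted p = 0.00101), 0.17 ± 0.05 at 72 h (0.00701) and 0.98 ± 0.07 at 240 h (5.85e-09), so it rose at 240 h and stayed under the fold threshold before. The course was not steady, since 72 h kd lay 0.23 below 48 h kd (limma adjusted p = 0.00964) and 240 h kd lay 0.77 above 72 h kd (1.02e-13).

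The effect on Dusp6 at 240 h exceeded that at 48 h by 0.59 ± 0.11 on the log2 scale (limma adjusted p = 0.00113, 12 libraries), the only member called in this comparison. Leaving out 1 of 5 libraries brought this difference under the fold threshold: it was 0.53 without the second 48 h kd library, 0.54 without the second 48 h ctrl, 0.52 without the third 240 h ctrl, 0.56 without the second 240 h kd and 0.53 without the third 240 h kd library.

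Spry2, an inhibitor of receptor tyrosine kinase signalling upstream of RAF, was the most abundant per kilobase of exon of the 8 members measured on their own. It lies on chromosome 14 (105891947 to 105896819, minus strand), with no other listed gene over it. Its control libraries read 34, 35.4 and 35.4 FPKM at 48 h and 31.2, 31.9 and 31.7 at 240 h. Those with knockdown read 41.7, 41.4 and 43 FPKM at 48 h, 51.6, 50.3 and 54.1 at 72 h, and 49.6, 53.4 and 53 at 240 h. All kd libraries lay above all control libraries, and the 72 h and 240 h kd libraries overlapped each other above those of 48 h. For Spry2 the log2 fold change was 0.27 ± 0.05 (SE) at 48 h (limma adjusted p = 0.00112), 0.57 ± 0.04 at 72 h (2e-12) and 0.72 ± 0.04 at 240 h (3.08e-10). Spry2 thus rose at 240 h, and the 72 h value missed the fold threshold by less than its SE.

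The Spry2 calls at 72 h and 240 h depended on which controls were used. The 240 h controls lay below the 48 h controls by 0.15 ± 0.04 (limma adjusted p = 0.0395). Against 240 h ctrl the 72 h kd libraries gave 0.72, past the threshold, and against 48 h ctrl the 240 h kd libraries gave 0.57, under it. Between 240 h kd and 72 h kd the 95% interval of the Spry2 difference was -0.07 to 0.07. The 72 h value was also past the threshold at 0.58 without the second or the third 48 h ctrl library and at 0.59 without the second 72 h kd library.

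Spry4, a second Sprouty inhibitor, behaved otherwise at 240 h. It lies on chromosome 18 (38586247 to 38601415, minus strand). Spry4 amounted to 19.1, 18.1 and 19 FPKM in controls at 48 h and 18.2, 17.6 and 15.1 at 240 h. With knockdown it amounted to 25.1, 26.1 and 24.2 FPKM at 48 h, 23.8, 22.8 and 24.2 at 72 h, and 16.5, 16.6 and 17.8 at 240 h. The early kd libraries lay above their controls, whereas the 240 h kd and ctrl libraries overlapped. For Spry4 the log2 fold change was 0.42 ± 0.05 (SE) at 48 h (limma adjusted p = 5.87e-05), 0.33 ± 0.04 at 72 h (2.22e-08) and 0.00 ± 0.06 at 240 h (0.959, 95% interval -0.12 to 0.13), none of them past the fold threshold. The effect at 240 h minus that at 48 h was -0.42 ± 0.08 (limma adjusted p = 0.00125), opposite in sign to that of Spry2, which was 0.45 ± 0.06 (2.27e-05).

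Spred1, a membrane-bound inhibitor that brings neurofibromin to RAS, was not called in any comparison. It lies on chromosome 2 (117121374 to 117182279, plus strand). The controls held 2.59, 2.55 and 2.51 FPKM of Spred1 at 48 h and 2.47, 2.46 and 2.34 at 240 h. The kd cells held 2.54, 2.5 and 2.62 FPKM at 48 h, 2.35, 2.32 and 2.36 at 72 h, and 3.59, 3.34 and 3.46 at 240 h. Only the 240 h kd libraries stood apart upwards, and the 48 h groups overlapped. The log2 fold change was 0.00 ± 0.05 (SE) at 48 h (limma adjusted p = 0.984), -0.12 ± 0.04 at 72 h (0.0075) and 0.51 ± 0.04 at 240 h (3.58e-08), under the fold threshold. The 240 h kd libraries lay 0.56 above 72 h kd (limma adjusted p = 1.66e-14), and the effect at 240 h exceeded that at 48 h by 0.51 ± 0.06 (6.57e-06).

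Etv4 and Etv5 encode related ETS transcription factors downstream of ERK. Etv4, on chromosome 11 (101769742 to 101785371, minus strand), measured 13.2, 12.6 and 13.5 FPKM in controls at 48 h and 13.4, 13 and 12.2 at 240 h. Knockdown libraries gave 15.2, 17 and 16.2 FPKM at 48 h, 11, 12.2 and 12.4 at 72 h, and 13.1, 12.5 and 12.4 at 240 h. The 48 h kd libraries were highest, those of 72 h kd lay below the 48 h controls, and the 240 h groups overlapped. For Etv4 the log2 fold change was 0.30 ± 0.05 (SE) at 48 h (limma adjusted p = 0.00119), -0.15 ± 0.04 at 72 h (0.00474) and -0.03 ± 0.05 at 240 h (0.667, 95% interval -0.12 to 0.07). Between 72 h and 48 h kd the difference was -0.45 ± 0.06 (limma adjusted p = 6.64e-05), the largest of any member between those groups but still under the fold threshold.

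Etv5, on chromosome 16 (22381309 to 22439719, minus strand), measured 4.73, 4.82 and 4.87 FPKM in controls at 48 h and 4.9, 4.78 and 4.92 at 240 h. After Smarcb1 loss it measured 4.65, 4.3 and 4.48 FPKM at 48 h, 3.97, 3.89 and 3.89 at 72 h, and 4.71, 4.66 and 4.73 at 240 h. Etv5 was the steadiest of the 8 members measured on their own, with a ratio of 1.24 between its highest and lowest group, and was lowest in 72 h kd. The log2 fold change was -0.10 ± 0.05 (SE) at 48 h (limma adjusted p = 0.137), -0.29 ± 0.04 at 72 h (8.97e-08) and -0.05 ± 0.04 at 240 h (0.341), none called. At 48 h Etv4 lay above its controls and Etv5 below.

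**Figure D3:**
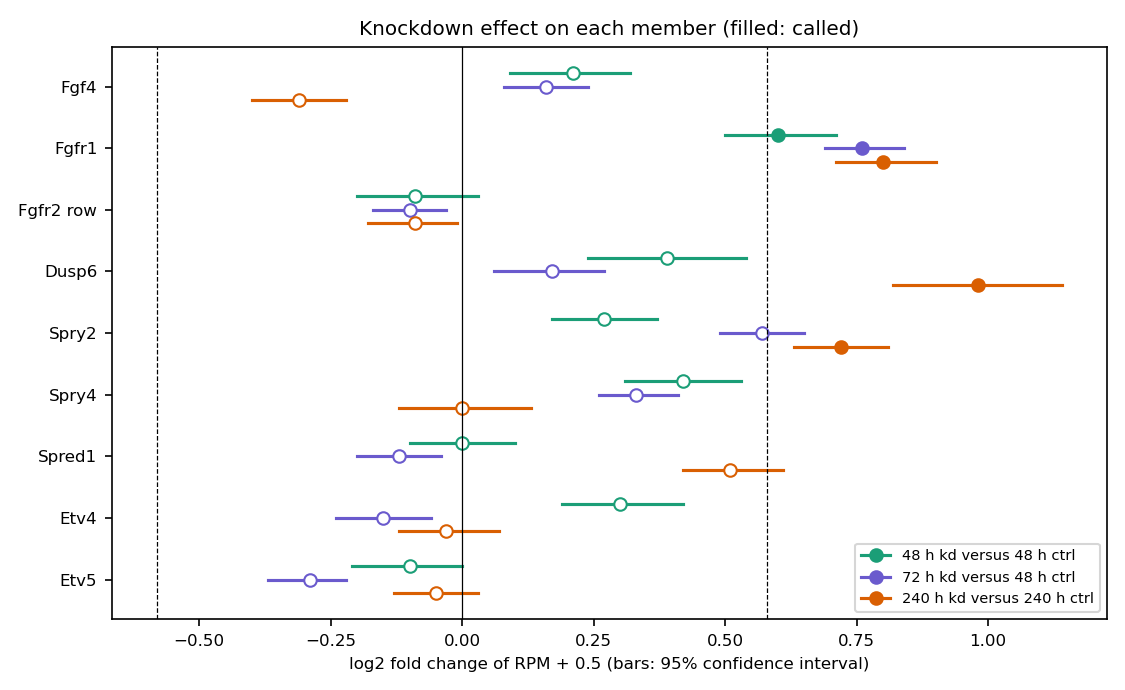
Log2 fold change of RPM + 0.5 (x axis) for each member (y axis) in the 3 kd comparisons, with 95% confidence intervals from limma; filled points are called and dashed lines mark ±0.58. Fgfr1 is called at 48 h (0.60), 72 h (0.76) and 240 h (0.80), and Dusp6 (0.98) and Spry2 (0.72) at 240 h only. Fgf4, Etv4 and Spred1 have intervals above 0 at some times and below 0 at others. Those of Spry4, Etv5 and the Fgfr2 row are clear of 0 at some times and across it at others.

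At 48 h 1 of 9 members was called, 1 higher and 0 lower, where 8.67% of the 16108 genes tested were called, 4.02% higher and 4.66% lower. By limma's adjusted p alone 6 members passed, all higher than control, beside 26.2% of all genes. The groups did not overlap for 8 of 9 members, beside 41.6% of all genes. The median log2 fold change of the members was 0.27 and that of all genes tested 0.01.

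At 72 h 1 of 9 members was called, higher, beside 20.5% of 16146 genes tested, 11.3% higher and 9.18% lower. Of the called genes 55.3% were higher, and 45.3% with median centring. By adjusted p alone all 9 passed in limma, 5 higher and 4 lower, beside 62.2% of all genes, and the groups did not overlap for all 9, beside 65.2%. The median was 0.16 for the members and 0.01 for all genes.

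At 240 h 3 of 9 members were called, all higher, beside 16.5% of 16633 genes tested, 9.09% higher and 7.42% lower. By adjusted p alone 5 passed in limma, 4 higher and 1 lower, beside 45.5% of all genes, and the groups did not overlap for 7, beside 53.1%. The median was 0.00 for the members and 0.01 for all genes. The members' share of calls was thus close to the background at 48 h, below it at 72 h and above it at 240 h, on 9 genes of which 1 row is not specific to its gene.

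Between the untreated groups 0 members were called from 48 h to 240 h in limma, beside 1.17% of all genes, and 1 passed by adjusted p alone (Spry2), beside 12.8%. The differences between the controls lay within 0.15 of 0 on the log2 scale for all 9 rows as point estimates, with 95% intervals that reached -0.27 for Spry4 and -0.24 for Spry2, and the remainder of the Fgfr2 row differed by -0.24. From 48 h to 72 h kd 0 members were called and 6 passed by adjusted p alone in limma, beside 11.8% and 43.0% of all genes. From 72 h to 240 h kd 1 was called (Dusp6) and 7 passed by adjusted p alone, beside 22.8% and 65.3%. In these 7 the largest downward differences were those of Spry4, -0.47, and Fgf4, -0.42.

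The test of the effect at 240 h minus the effect at 48 h called 1 member, Dusp6, and 7 passed by adjusted p alone in limma, beside 10.6% and 20.7% of all genes. Dusp6, Spred1, Spry2 and Fgfr1 had the larger effect at 240 h, by 0.59, 0.51, 0.45 and 0.20. Fgf4, Spry4 and Etv4 had the lower effect at 240 h, by -0.52, -0.42 and -0.33. Etv5 and the Fgfr2 row differed by 0.05 and -0.01 (limma adjusted p = 0.537 and 0.958).

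Levels of different genes were compared per kilobase of exon, since gene spans differ widely. On the scale of RPM, counted over the whole gene, per kilobase of exon, averaged over the 15 libraries and leaving out the Fgfr2 row (129.02, mostly reads of other genes), Spry2 came first with 99.3, followed by Fgf4 with 73.6, Etv4 with 67.1, Etv5 with 64.8 and Spry4 with 64.7. Spred1, Dusp6 and Fgfr1 were close together at 23.9, 23.9 and 23.7. Reads in introns count in this measure, which raises long genes. The FPKM as deposited put Etv5 far lower than Etv4, at 3.89 to 4.92 against 11 to 17, because the span of Etv5 is 58411 bases and that of Etv4 15630.

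The order of the groups also differed between members. For Fgfr1 and Spry2 240 h kd and 72 h kd shared the highest level with overlapping libraries, 48 h kd came next without overlap and both controls were lowest. For Dusp6 the order was 240 h kd, 48 h kd and 72 h kd without overlap, then both controls, which overlapped. For Spry4 48 h kd and 72 h kd overlapped at the top, and the controls and 240 h kd were below. For Etv5 the 48 h controls overlapped with the 240 h controls above them and with 240 h kd below them, the 240 h groups did not overlap each other, and 48 h kd and 72 h kd followed without overlap. Spred1 was highest in 240 h kd, with the other 4 groups between 2.34 and 2.56 FPKM on average.

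Across the 15 libraries, Pearson's r of log2(RPM + 0.5) between members, leaving out the Fgfr2 row, lay above 0 in 15 and below 0 in 13 of 28 pairs, with a median of 0.0323. The highest was that of Fgfr1 with Spry2, 0.956, followed by Dusp6 with Spred1, 0.872. The lowest was that of Fgf4 with Spred1, -0.859, and Spry4 and Etv5 gave -0.716. Sprouty genes were not closely alike, with 0.345 for Spry2 and Spry4, nor were the ETS genes, with 0.165 for Etv4 and Etv5. By rank correlation (Spearman) Fgfr1 with Spry2 was again highest, at 0.875, and Spry2 with Etv5 was lowest, at -0.743. On that measure Dusp6 with Spred1 gave 0.596 and Fgf4 with Spred1 -0.575. These values describe 15 libraries in 5 groups that share total reads and 1 cell line and are not tests.

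**Figure D4:**
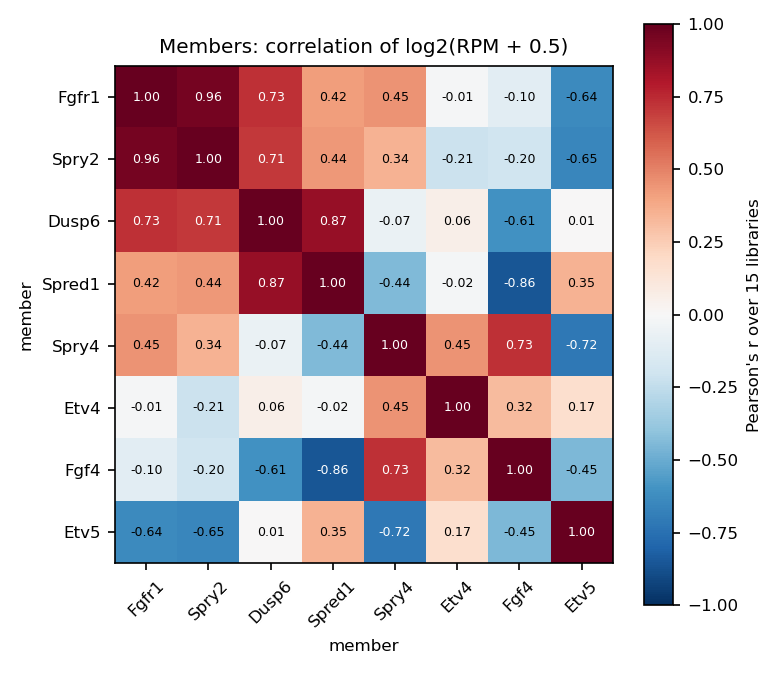
Pearson's r of log2(RPM + 0.5) between 8 members over the 15 libraries (both axes: members; colour and number: r). Fgfr1 and Spry2 stand together at 0.956 and Dusp6 and Spred1 at 0.872, while Fgf4 and Spred1 lie at -0.859.

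Genes most like each member over the same 15 libraries were sought among about 12565 genes that averaged 50 reads or more. Closest to Fgfr1 were Sema3e (Pearson's r = 0.993), Zcwpw1 (0.990) and Sox1ot (0.988), and closest to Spry2 were Pcsk1n (0.989), B3gnt7 (0.988) and Rcbtb2 (0.984). Dusp6 was closest to Lig3 (0.973), Sall2 (0.966) and Dppa2 (0.961), Spred1 to Pon2 (0.986) and Spry4 to Mtus1 (0.973). Etv5 was closest to Actg1 (0.975), Fgf4 to Mlh3 (0.957) and Etv4 to Lin28b (0.927), the weakest of these best matches. The matches depended on the measure. By rank correlation (Spearman) the 3 nearest were Hs2st1, Cdr2l and Rragd for Fgfr1, and Isyna1, Scpep1os and Bst2 for Spry2. Members were left out of this search.

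The wider pathway was described from 5 further lists. Among 21 other FGF ligand genes, 12 were tested at 48 h and 72 h and 14 at 240 h, with 3 called higher and 2 lower at 48 h, 1 higher and 2 lower at 72 h, and 2 higher and 3 lower at 240 h. Fgf17, a ligand of the Fgf8 family, rose by 0.94 at 48 h and 0.89 at 72 h (limma adjusted p = 2.05e-07 and 3.18e-15) from 12.5 ± 0.507 (SD, n = 3) to 24.1 ± 1.31 and 23.2 ± 0.402 FPKM, and was at -0.01 at 240 h (0.897). Fgf1 rose by 0.60 at 48 h (limma adjusted p = 0.000703), within a span that overlaps Arhgap26. Fgf5, the ligand known as a marker of primed pluripotency, rose by 1.67 at 240 h (limma adjusted p = 1.92e-05), from 5 to 18 reads a library to 46 to 63; it was chosen after its values were seen. Fgf10, also named after its values were seen, fell by 1.61, 1.33 and 0.87 at the 3 times (limma adjusted p = 0.000115, 4.33e-06 and 0.000893) at 4 to 36 reads a library. Of the 5 other receptor and co-receptor genes, 3 were tested. Fgfr3 fell by 0.69 at 48 h (limma adjusted p = 0.0297) at 11 to 34 reads a library, Fgfr4 rose by 0.77 at 72 h (0.000133) at 25 to 66 reads, and none was called at 240 h; both were named after their values were seen.

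The 24 genes of the RAS to ERK cascade were nearly all steady, with 0 called higher and 1 lower at 48 h, 2 higher and 0 lower at 72 h, and 1 higher and 2 lower at 240 h, and medians of -0.08, -0.06 and -0.03. Mapk3, which encodes ERK1, fell by 0.91 at 240 h (limma adjusted p = 3.03e-10), from 13.6 ± 0.382 to 7.22 ± 0.367 FPKM (SD, n = 3), after values of -0.40 and -0.44 at 48 h and 72 h. The ribosomal S6 kinase gene Rps6ka2 fell by 0.85 at 240 h (limma adjusted p = 3.15e-09), whereas Rps6ka1 rose by 0.71 at 72 h (3.76e-14). Sos2, an exchange factor for RAS, rose by 0.74 at 72 h and 0.71 at 240 h (limma adjusted p = 5.4e-08 and 9.53e-07). The scaffold gene Ksr1 fell by 0.63 at 48 h (limma adjusted p = 0.000567).

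Of 14 other ERK feedback genes, 13 were listed and tested, and they were called in both directions: 2 higher and 3 lower at 48 h, 2 higher and 0 lower at 72 h, and 3 higher and 2 lower at 240 h. The nuclear and cytoplasmic phosphatase genes Dusp4 and Dusp9 fell by 0.94 and 0.88 at 48 h (limma adjusted p = 2.55e-05 and 1.73e-05), the time at which Dusp6 lay at 0.39. At 240 h Dusp4 and Dusp9 lay at 0.18 and 0.24 (limma adjusted p = 0.145 and 0.00247). Dusp5 rose by 0.83 at 72 h and 0.76 at 240 h (limma adjusted p = 8.85e-08 and 2.88e-06). Dusp1 fell by 0.65 at 48 h and 0.78 at 240 h (limma adjusted p = 9.97e-05 and 3.68e-07), within a span that overlaps Ergic1, whose reads are more numerous. Spred3 rose by 0.68 at 48 h and 1.06 at 240 h (limma adjusted p = 0.00157 and 2.89e-07), and Spry1, named after its values were seen, fell by 0.74 at 240 h (8.53e-06), when Spry2 rose. Dusp2, a nuclear phosphatase gene named in the same way, rose by 0.70, 1.41 and 1.14 at the 3 times (limma adjusted p = 0.0156, 2.45e-07 and 0.000141) at 10 to 50 reads a library.

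Of 15 ERK response genes 14 were tested, with 1 called higher and 1 lower at 48 h, 2 higher and 3 lower at 72 h, and 3 higher and 1 lower at 240 h. The immediate early genes Fos and Egr1 rose at 72 h by 1.5 and 1.17 (limma adjusted p = 1.48e-09 and 1.17e-08), and Egr1 had fallen by 0.81 at 48 h (0.0014). Egr1 spread widely among the 72 h kd libraries, with 10.1, 6.10 and 6.03 FPKM. It was also called higher in the 240 h than in the 48 h controls. The 240 h ctrl libraries, at 6.71, 5.85 and 3.18 FPKM, overlapped those of 72 h kd. Myc rose by 1.07 at 48 h and 0.95 at 240 h (limma adjusted p = 5.15e-08 and 3.15e-10) and was at -0.16 at 72 h (0.0206). Phlda1 rose by 0.76 at 240 h (limma adjusted p = 0.000118) at 49 to 106 reads a library. Called members were only higher, whereas each of these 5 lists held called genes in both directions over the 3 times; that difference was not tested.

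**Figure D5:**
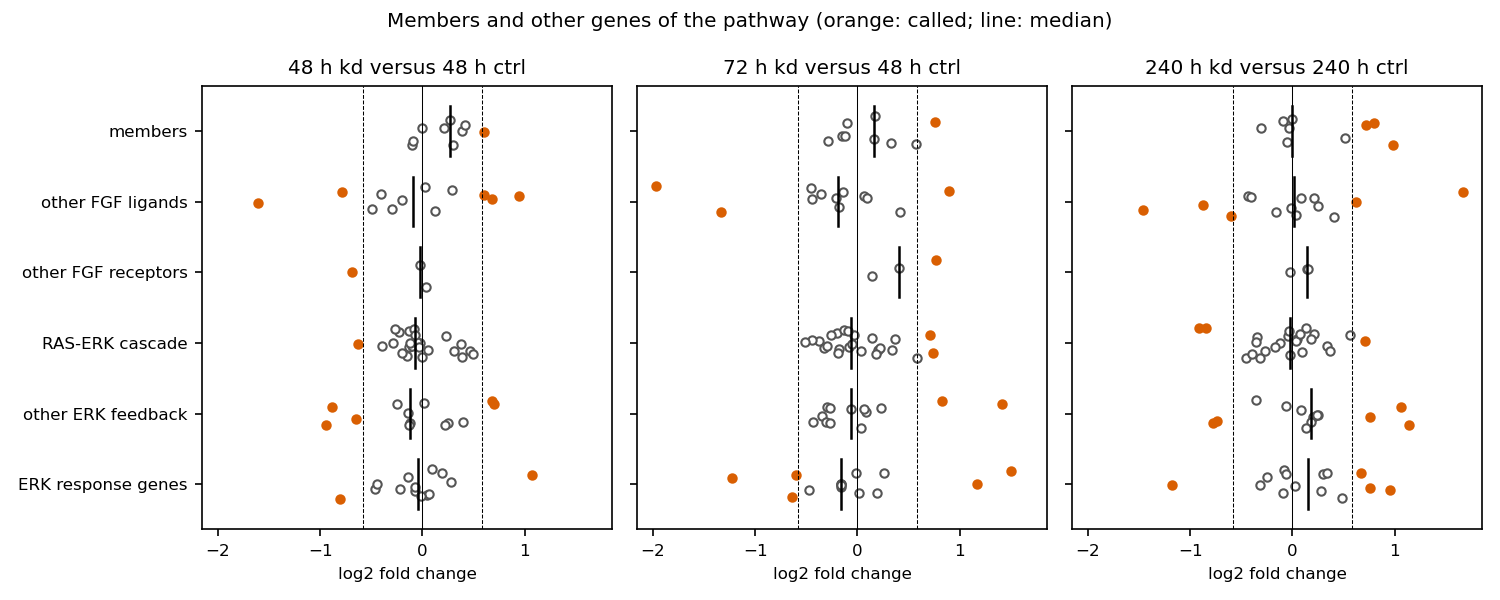
Log2 fold change (x axis) of the members and of the tested genes of 5 other pathway lists (y axis) in the 3 kd comparisons; points are genes, spread vertically for legibility, orange points are called, short lines are medians and dashed lines mark ±0.58. The member medians are 0.27, 0.16 and 0.00. Called members lie only to the right of 0, and each of the 5 other lists has called genes on both sides over the 3 panels.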

How the data were processed

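The authors aligned single-end reads to mouse build mm10 (GRCm38.p6) with STAR 2.7.0c and used DESeq2 1.30.0 in R 4.0.3, per the labels. They deposited FPKM, 1 value per gene and library. The annotation used for counting is not given in the sources used here, which name GENCODE M23 for the regions of ChIP-seq peaks. Of the 55228 genes 96.5% matched GENCODE M21. FPKM times the gene span and 1 total per library gave whole reads, within 0.001, for all values above 0. Genes were counted irrespective of strand and of overlap with others.

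Here limma 3.58.1 (R 4.3.3, eBayes with a trend) tested log2(RPM + 0.5), with RPM the FPKM times the span in kilobases, two-sided, on genes averaging 10 reads or more, in fits of the 6 libraries compared, or 12 for the difference between effects. An exact permutation test of 3 against 3 was not used. The members and lists were chosen with earlier results of these data known. From the other lists, called genes with at least 50 reads were named, up to 5 by size. The script was tested on simulated data. Alternatives were other pseudocounts, minima, scalings, thresholds, controls, voom, a replicate block and single libraries left out. Reads carry no molecular identifiers. Tables were handled with Python 3.11.15.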

Additional observations from a re-analysis of the deposited data

Results flagged for a closer look

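The knockdown effect at 240 h differed from that at 48 h for 7 members, by a test of the difference itself (limma interaction, adjusted p under 0.05, 12 libraries), beside 20.7% of all genes. The difference, in log2 units, was 0.59 for Dusp6, 0.51 for Spred1, 0.45 for Spry2 and 0.2 for Fgfr1, which had the larger effect at 240 h. It was -0.52 for Fgf4, -0.42 for Spry4 and -0.33 for Etv4. Of these, Dusp6 alone also passed the fold threshold of 0.58, beside 10.6% of all genes.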

How the results depend on the processing

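The members' calls rested mainly on the fold threshold. With none, 6, 9 and 5 members were called at 48 h, 72 h and 240 h, 1 between controls, 6 from 48 h to 72 h kd, 7 from 72 h to 240 h kd and 7 for the difference between effects, and with a threshold of 1 there were 0 in each. Rescaling to TPM gave 0 at 48 h (Fgfr1 0.56), 2 at 72 h (Spry2 0.59) and 2 from 72 h to 240 h kd (Spred1 0.64), median centring also 2 there (0.65), quantile normalization 2 at 72 h and 0 for the difference between effects, and 240 h ctrl as control 2 at 72 h. Leaving out 1 library gave 0 to 1 at 48 h, 1 to 2 at 72 h, 3 at 240 h, 1 to 2 from 72 h to 240 h kd and 0 to 1 for the difference between effects.

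Over all genes, in the order of the 7 comparisons, log2(FPKM + 0.1) with a minimum of 0.5 FPKM called 456, 1548, 1016, 54, 857, 1803 and 664 genes, no fold threshold 4219, 10039, 7570, 2080, 6927, 10813 and 3401, and a threshold of 1 gave 375, 1115, 1036, 19, 382, 1271 and 692. A minimum of 50 reads called 827, 2132, 1574, 87, 1127 and 2419 in the first 6. A pseudocount of 2 called 833 at 48 h, 1759 at 240 h, 58 between controls and 1066 from 48 h to 72 h kd. Between controls, TPM called 307, no variance trend 59, an adjusted p under 0.01 93, and leaving out 1 library 95 to 280. TPM moved the median of all genes between controls from -0.016 to 0.09 and the share called higher from 64.2% to 90.6%. From 48 h to 72 h kd 53.3% were higher, 43.1% with centring and 63.9% with TPM, and from 72 h to 240 h kd 48.4%, 61.9% and 59.7%.

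Directions of members turned only in uncalled values near 0. Spred1 at 48 h was -0.02 with centring, -0.0013 with quantiles, -0.04 with TPM and -0.02 to 0.02 with 1 library left out. Spry4 at 240 h was -0.0012 with centring, -0.0026 with TPM, -0.14 against 48 h ctrl and -0.08 to 0.06 with 1 library left out, and Etv4 there -0.07 to 0.003. Between controls, Fgfr1 was 0.02 with centring, and TPM gave 0.11 for Fgfr1, 0.01 for Fgfr2, 0.07 for Dusp6, 0.04 for Spred1 and 0.09 for Etv4, while quantiles gave 0.01 for Fgfr2 and -0.00012 for Etv5. With 1 library left out, Dusp6 was -0.1 to 0.03, Fgfr1 -0.03 to 0.02 and Etv4 -0.05 to 0.01. From 48 h to 72 h kd TPM gave 0.02 for Fgf4 and 0.05 for Fgfr2. From 72 h to 240 h kd Fgfr2 was 0.0015 with centring and 0.05 with quantiles, and Spry2 0.09 with centring, 0.08 with TPM, 2.7e-05 with voom and -0.02 to 0.03 with 1 library left out. For the difference between effects Fgfr2 was 0.03 with TPM and -0.01 to 0.01 with 1 library left out. The causes were not tested.

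Replicate numbers are shared by the groups, but same-numbered libraries did not deviate together throughout in any of the 6 comparisons of groups. The correlations of their deviations were -0.39, -0.191 and 0.201 at 48 h and, at the other extreme, 0.375, -0.0241 and 0.258 between the controls, and the same number gave the best correlation for only 1 or 2 of the 3 pairs. With 3 libraries a group these correlations cannot exclude a pairing or a shared batch. In the main tests the numbers were used as names of libraries only. With the replicate number as a block, 1, 1 and 3 members were called at 48 h, 72 h and 240 h, and 1355, 3312 and 2758 genes. Depth limits genes of under 50 reads most, none of them a member.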
